A study of Homo sapiens with 4 samples.

Results

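The genes of the cytosolic ribosomal proteins were examined in colon cancer epithelial cells given TGF-β1, a secreted signal that slows the growth of many epithelia, and in untreated cells. A gene was included when a probe set (the group of short probes that reads 1 transcript) carried a single annotated symbol that begins RPL or RPS followed by a digit, or is RPLP1 or RPLP2. Pseudogenes, names ending in L, RPS6K kinase genes and RPS4Y genes were left out. The rule found 57 genes among 19775 genes in all, read by 116 probe sets. Of these, 52 encode standard ribosomal proteins, 32 of the large and 20 of the small subunit. A further 3 are the paralogs RPL7L1, RPL22L1 and RPL26L1, called L1-type here after the ending of their names. The last 2, RPL34-DT and RPL26L1-AS1, are noncoding transcripts that only share the name, and they are given apart below. RPLP0 and RPSA, which the rule also names, were not analysed here.

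The 4 arrays (HG-U133 Plus 2.0, total RNA, 1 colour) fall into 2 groups of 2. LSTGFBR2 cells are a colon cancer line with a doxycycline-inducible construct of TGFBR2, the type II TGF-β receptor. The TGF-β1 arrays came from cells to which TGF-β1 was added at 5 ng/ml, 16 hours after seeding, and left for 16 hours. The untreated arrays came from the same line with no treatment named. The protocols describe doxycycline at 1 µg/ml from seeding (at 1 µM in the growth protocol), and leave unsaid to which arrays this applies. One TGFBR2 probe set read 14.70 and 14.92 in TGF-β1 arrays, against 9.44 and 9.55 in untreated arrays. The other TGFBR2 probe set read 10.58 and 10.76 in TGF-β1 arrays, against 10.47 and 10.81 in untreated arrays, so the receptor's probe sets disagree. By the first probe set the groups also differed in TGFBR2 (log2 fold change 5.32), and whether they differed in doxycycline is not stated. Any part of doxycycline or of receptor level in the results below cannot be told apart from that of TGF-β1. Of 10 colon epithelial markers all had a mean log2 value over 7, and EPCAM, KRT8 and KRT18 lay above 14. One of the 10, CDX2, an intestinal transcription factor gene, fell (1.66-fold lower, limma adjusted p = 0.0327, and 0.101 to 0.195 with 1 array left out). Over the 10 colon epithelial markers, 3 log2 fold changes were below 0, and they ran from -0.73 to 0.56 with a median of 0.07. Of the markers of fibroblasts, endothelium and leukocytes, 6 of 9, 6 of 7 and 6 of 7 lay under 7, and no member of these 3 lists passed the test. Over the 9 fibroblast markers, log2 fold changes ran from -1.72 to 0.20. At an unadjusted limma p under 0.05, 2 of the 9 were lower and 0 higher, against 8.54% and 8.18% of all genes. The median of the fibroblast list was 6.73 and 6.16 in TGF-β1 arrays, against 6.55 and 6.78 in untreated arrays, and the part of these genes in any result was not tested. All values are log2 RMA values, in which the authors corrected the background and gave every array the same spread of values, which hides any shift common to most transcripts. With bulk RNA, fewer cells of a kind and less RNA per cell cannot be told apart.

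Ribosomal proteins join ribosomal RNA in the nucleolus to form the subunits that carry out translation, and a dividing cell makes them in nearly equal amounts. Their mRNAs are among the most abundant of a cell and begin with a run of pyrimidines, the TOP tract (terminal oligopyrimidine), through which mTOR signalling and the binding protein LARP1 control their translation and stability. MYC is known to promote the transcription of ribosomal protein genes and of genes that build ribosomes, and TGF-β is known to lower MYC in epithelial cells.

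The start sites of some members are shown because the TOP tract is the feature most of them share and the L1-type paralogs do not all have it. RefSeq promoters (GRCh38.p14, 250 bases before to 50 after the annotated start) were given for 51 of the 57 genes, 46 of them standard members. Each line holds 60 bases of the gene's own strand, 40 before and 20 from the annotated start, and capitals mark the longest run that opens with a C within 5 bases of the start and goes on with at least 4 pyrimidines (C or T).
RPL41 (chr12:56116593-56116652, + strand): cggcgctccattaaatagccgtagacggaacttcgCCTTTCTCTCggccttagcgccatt
RPL37A (chr2:216498804-216498863, + strand): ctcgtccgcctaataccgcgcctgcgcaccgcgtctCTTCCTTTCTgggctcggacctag
RPLP1 (chr15:69452778-69452837, + strand): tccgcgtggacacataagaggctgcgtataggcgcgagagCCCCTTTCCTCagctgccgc
RPS18 (chr6:33272035-33272094, + strand): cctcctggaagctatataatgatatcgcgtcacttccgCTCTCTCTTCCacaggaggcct
RPS6 (chr9:19380217-19380276, - strand): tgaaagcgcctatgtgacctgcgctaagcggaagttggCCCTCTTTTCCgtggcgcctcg
RPL36 (chr19:5690255-5690314, + strand): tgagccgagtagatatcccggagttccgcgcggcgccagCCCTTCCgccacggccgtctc
RPL22 (chr1:6199576-6199635, - strand): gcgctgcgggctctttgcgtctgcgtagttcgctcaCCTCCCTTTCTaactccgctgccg
RPL22L1 (chr3:170870176-170870235, - strand): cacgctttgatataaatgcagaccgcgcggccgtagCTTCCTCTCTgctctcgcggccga
RPL7L1 (chr6:42879576-42879635, + strand): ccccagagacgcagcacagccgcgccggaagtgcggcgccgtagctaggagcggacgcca
RPL26L1 (chr5:172958689-172958748, + strand): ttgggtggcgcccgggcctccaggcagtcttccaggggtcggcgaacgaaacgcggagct

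The tract was found in 40 of 46 standard members (87.0%), against 25.2% of 27305 genes with a RefSeq promoter. RPL22L1 had one of 10 bases, close in length to that of RPL22 with 11. RPL7L1 and RPL26L1 had none at their annotated starts, as had RPL27, RPL6, RPL9, RPS15, RPS29 and RPS4X among the standard members. Of 5 further motifs searched on both strands of the 300 bases, CCGGAAG, bound by ETS factors, was in 37.0% of standard members and 12.2% of all genes. Its reverse complement CTTCCGG can share bases with a tract. CACGTG, the E-box that MYC binds, was in 3 standard members (RPL19, RPS19 and RPS28, 6.52%) and in RPL7L1, and in 8.77% of all genes. AAGATGGC was in 8.70% of standard members and 3.52% of all genes, GTCTAGAC in 0% and 0.256%, and TATAAA was in 6.52% of standard members and in 3819 of all genes. These matches describe letters in a window and say nothing of binding.

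No ribosomal protein gene passed the test, and most differences were small. At a limma adjusted p under 0.05, 0 of the 57 were higher and 0 lower in TGF-β1 arrays, where 3.34% of all genes passed (1.87% higher and 1.47% lower), and the lowest adjusted p among them was 0.235. At an unadjusted p under 0.05, 1 member was lower and 0 were higher, against 8.54% and 8.18% of all genes. The median log2 fold change was -0.05 over the 57, and -0.0036 over all genes. Of the 57, each read by its brightest probe set, 48 lay within 0.1 of 0 on the log2 scale. The differences were small but ran 1 way, since 54 of 57 log2 fold changes were below 0, as were 51.2% of those of all genes.

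**Figure D1:**
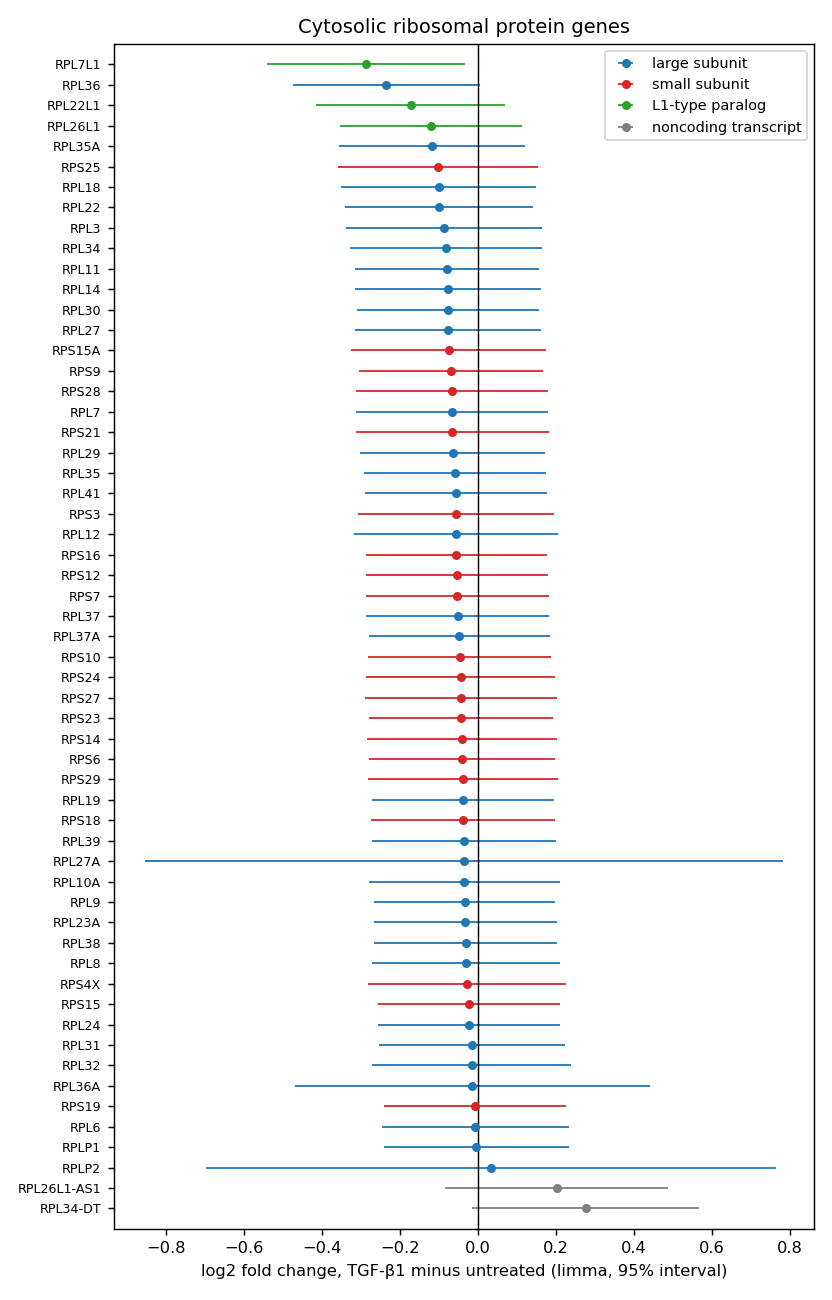
Each row is 1 of the 57 genes, with its log2 fold change (TGF-β1 minus untreated) as a point and limma's 95% interval as a bar, coloured by subunit or class. All points but 3 lie left of 0, RPL7L1 is lowest at -0.29, and the widest bars are those of RPL27A and RPLP2, which were read by dim probe sets.

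For the 49 standard members with a mean log2 value of 10 or more, log2 fold changes ran from -0.235 to -0.01, and limma's 95% intervals all lay between -0.48 and 0.24. These bounds hold for each gene's brightest probe set, and other probe sets of members ran from -0.82 to 0.29. Of the 57 members, 41 were among the 100 genes of highest mean. Whether such bright probe sets understate a change was not tested. RPL41 encodes the smallest ribosomal protein, and its probe set was the brightest of each array. It read 15.26 and 15.28 in TGF-β1 arrays, against 15.32 and 15.34 in untreated arrays. The groups did not overlap, but the difference did not pass (log2 fold change -0.06 ± 0.096, SE, n = 2 arrays a group, limma adjusted p = 0.863), and its interval ran from -0.29 to 0.18. RPL37A, a zinc-binding protein gene of the same subunit, read 15.01 and 15.02 in TGF-β1 arrays and 15.06 and 15.07 in untreated arrays, again without overlap and without passing. Probe sets differ in how well they bind, so their levels are not compared here as amounts of mRNA.

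The 32 large subunit genes had a median log2 fold change of -0.05 and the 20 small subunit genes one of -0.05 as well, and none of either passed. Below 0 lay 31 of the 32 and 20 of the 20.

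Among large subunit genes, RPL36 had the most negative value of any standard member. It read 13.004 and 13.009 in TGF-β1 arrays, against 13.29 and 13.20 in untreated arrays. The groups did not overlap, but the difference did not pass (log2 fold change -0.235 ± 0.099, SE, limma adjusted p = 0.311). RPL35A, one of the genes mutated in Diamond-Blackfan anaemia, an inherited failure of red cell production, read 13.99 and 14.06 in TGF-β1 arrays and 14.13 and 14.16 in untreated arrays. Its groups also stood apart, by less than RPL36's (log2 fold change -0.12 ± 0.098, SE, limma adjusted p = 0.665). RPL11 binds 5S ribosomal RNA together with RPL5 and can restrain MDM2, the inhibitor of p53. It read 13.89 and 13.95 in TGF-β1 arrays, against 14.002 and 13.995 in untreated arrays, without overlap and without passing. RPL5 itself was not analysed here. RPL3, which lies near the peptidyl transferase centre, read 14.09 and 14.23 in TGF-β1 arrays and 14.25 and 14.24 in untreated arrays. Only TGF-β1 replicate 1 lay well below the others.

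The acidic stalk recruits elongation factors to the ribosome. RPLP1, one of its proteins, read 14.81 and 14.79 in TGF-β1 arrays, against 14.84 and 14.77 in untreated arrays. The groups overlapped (log2 fold change -0.01 ± 0.097, SE, limma adjusted p = 0.997). RPL12, which lies at the stalk's base, read 14.21 and 14.37 in TGF-β1 arrays and 14.33 and 14.36 in untreated arrays, again with overlap. RPLP2, the partner of RPLP1, was read by a probe set at 6.36 and 7.22 in TGF-β1 arrays, against 7.003 and 6.51 in untreated arrays. Replicates differed there by more than the groups, as they did for RPL27A (8.79 and 9.36 in TGF-β1 arrays, 9.60 and 8.63 in untreated arrays). RPL36A, at 5.97 and 6.24 in TGF-β1 arrays and 5.87 and 6.37 in untreated arrays, was likewise dim. Leaving out 1 array moved the log2 fold change of RPL27A between -0.52 and 0.45 and that of RPLP2 between -0.40 and 0.47, with both signs. At RPL6 and RPL23A the probe sets were bright and the differences small. RPL6 read 14.43 and 14.48 in TGF-β1 arrays and 14.42 and 14.50 in untreated arrays, and RPL23A, a protein of the tunnel exit, read 15.02 and 15.01 in TGF-β1 arrays and 15.03 and 15.07 in untreated arrays. Over 5 tunnel exit genes (RPL19, RPL23A, RPL31, RPL35 and RPL39) the log2 fold changes ran from -0.06 to -0.02.

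Among small subunit genes, RPS25 had the most negative value, with 13.98 and 13.98 in TGF-β1 arrays and 14.16 and 13.9997 in untreated arrays. It did not pass (log2 fold change -0.10 ± 0.106, SE, limma adjusted p = 0.742), and without untreated replicate 1, the highest of the 4 arrays, the log2 fold change was -0.02. RPS6 is the protein that S6 kinases phosphorylate downstream of mTOR. It read 14.63 and 14.70 in TGF-β1 arrays, against 14.69 and 14.72 in untreated arrays, and the groups overlapped. RPS3, at the site where mRNA enters and known also for a role in DNA repair, read 14.58 and 14.71 in TGF-β1 arrays and 14.73 and 14.67 in untreated arrays. The groups overlapped there too (log2 fold change -0.06 ± 0.103, SE, limma adjusted p = 0.880). RPS18, a protein of the small subunit's head, read 14.88 and 14.93 in TGF-β1 arrays and 14.94 and 14.95 in untreated arrays. RPS19, the gene most often mutated in Diamond-Blackfan anaemia, differed least in this subunit, at 14.90 and 14.87 in TGF-β1 arrays and 14.90 and 14.89 in untreated arrays. Of 13 measured Diamond-Blackfan genes of both subunits, 0 passed by limma and 0 had an unadjusted p under 0.05, with log2 fold changes from -0.12 to -0.01.

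The L1-type paralogs were 3 of the 4 members with the most negative log2 fold changes. RPL7L1 read 12.56 and 12.62 in TGF-β1 arrays, against 12.81 and 12.94 in untreated arrays. The groups did not overlap. RPL7L1 was 1.22-fold lower (log2 fold change -0.29 ± 0.104, SE, limma adjusted p = 0.235) and was the 1 member with an unadjusted p under 0.05. Its only probe set is named _x_at, a kind that can bind other transcripts. RPL22L1 read 13.82 and 13.92 in TGF-β1 arrays and 14.05 and 14.03 in untreated arrays, and RPL26L1 read 11.62 and 11.65 in TGF-β1 arrays and 11.76 and 11.75 in untreated arrays. Both were lower in each TGF-β1 array than in each untreated array, but neither passed (log2 fold changes -0.17 ± 0.099 and -0.12 ± 0.096, SE, limma adjusted p = 0.481 and 0.645). Their standard partners RPL7 and RPL22 had log2 fold changes of -0.07 and -0.10 in their brightest probe sets, both likewise named _x_at. At the brightest probe set not so named, RPL22 lay at -0.27 ± 0.114 (SE) and RPL7 at -0.19 ± 0.215 (SE). By that choice RPL22 was more negative than RPL22L1, so the order depends on the probe set. RPL7 read 14.74 and 14.86 in TGF-β1 arrays, against 14.88 and 14.86 in untreated arrays. In RPL22, whose protein is known in mice to repress Rpl22l1, the readings were 13.37 and 13.46 in TGF-β1 arrays and 13.50 and 13.53 in untreated arrays. The difference between a paralog and its partner was not tested. RPL26 was not analysed here.

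The 2 noncoding transcripts lay near the floor of the arrays. RPL34-DT read 4.28 and 4.11 in TGF-β1 arrays, against 4.01 and 3.83 in untreated arrays, and RPL26L1-AS1 read 4.38 and 4.23 in TGF-β1 arrays, against 4.01 and 4.19 in untreated arrays. Their log2 fold changes of 0.28 and 0.20 were, with that of RPLP2, the 3 above 0. RMA values carry no detection call, so whether such levels exceed background is not known.

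In 32 of 57 genes both TGF-β1 arrays lay below both untreated arrays, a pattern that 23.0% of all genes showed, and in 2 both lay above (21.4% of all genes). Of the 49 standard members with a mean of 10 or more, 42 had their lowest reading in TGF-β1 replicate 1 and 3 in TGF-β1 replicate 2. Relative to each gene's mean over the 4 arrays, the median was -0.05 in TGF-β1 replicate 1, -0.01 in TGF-β1 replicate 2, 0.03 in untreated replicate 1 and 0.02 in untreated replicate 2. TGF-β1 replicate 2 thus lay between TGF-β1 replicate 1 and the untreated arrays. Without TGF-β1 replicate 1 the median log2 fold change of the 57 was -0.0243 and 42 were below 0, while without TGF-β1 replicate 2 it was -0.0798 and 53 were below 0. The median gap between replicates was 0.04 log2 in TGF-β1 arrays and 0.03 in untreated arrays for these 49 genes, about the size of the group difference.

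**Figure D2:**
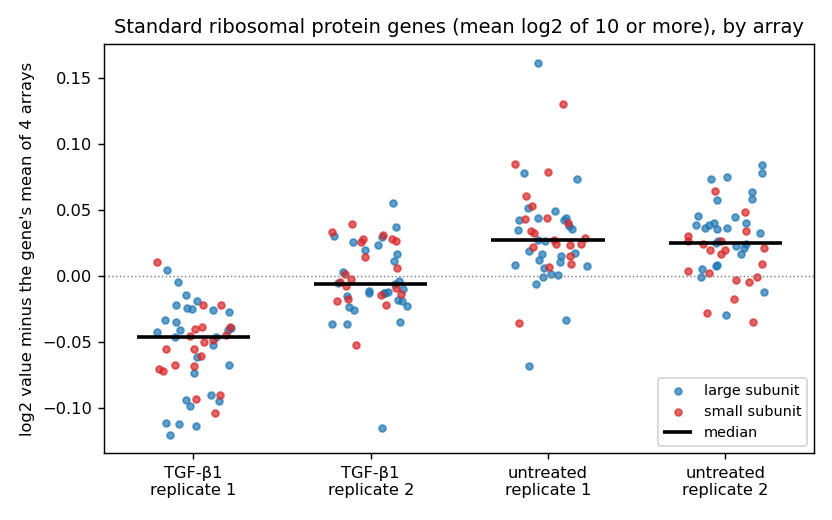
Points are the 49 standard ribosomal protein genes with a mean log2 value of 10 or more, each drawn as its log2 value minus its own mean over the 4 arrays, and black lines are medians. TGF-β1 replicate 1 is the lowest array for 42 genes, and TGF-β1 replicate 2 has a median of -0.01.

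Other bright genes lay on both sides of 0. Among genes with a mean log2 value of 14 or more, all 43 members were below 0 (median -0.05), and 26 of 67 other genes were (median 0.02). In those 67 genes the medians relative to their own means were 0.01 in TGF-β1 replicate 1, 0.0026 in TGF-β1 replicate 2, 0.02 in untreated replicate 1 and -0.02 in untreated replicate 2. This is a description of the 2 sets, without a test. After cyclic loess over all genes, which left the median of all genes at 0.0014, 45 of 57 members were below 0 (median -0.0209). The other bright genes were not examined under that scaling.

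**Figure D3:**
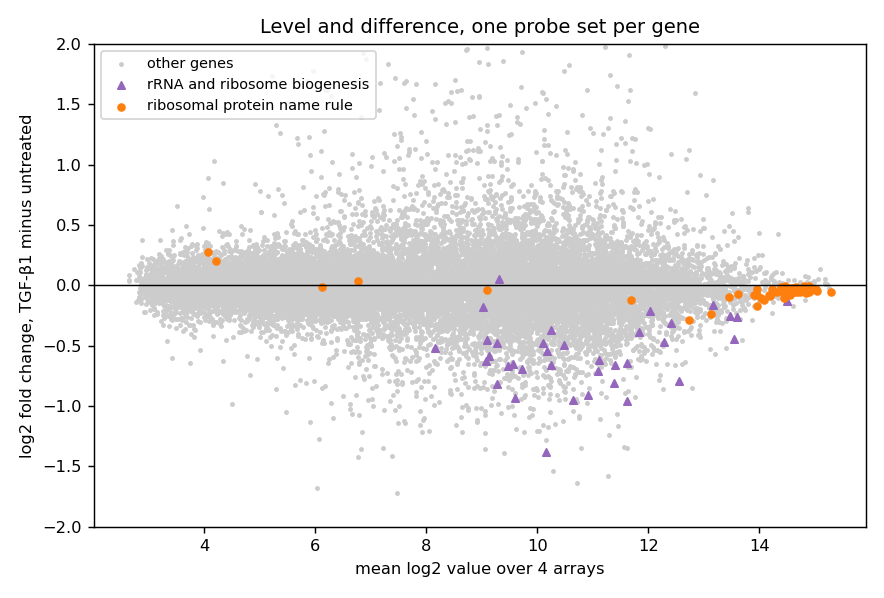
The mean log2 value over 4 arrays is on the horizontal axis and the log2 fold change (TGF-β1 minus untreated) on the vertical one, with 1 point per gene and 32 genes beyond 2 not drawn. Of the 57 ribosomal protein genes, 43 have a mean of 14 or more and sit at the right edge close to 0. The genes of rRNA and ribosome biogenesis lie lower, with a median of -0.56.

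A gene's other probe sets did not always follow its brightest one. For 33 members several probe sets were read, and over all 116 probe sets none passed at a limma adjusted p under 0.05 (0.953% of 54675 probe sets did), while an unadjusted p under 0.05 was reached by 9 in the lower direction (6.86% of all probe sets) and 0 in the higher (6.34%). The 59 that were not the brightest had a median log2 fold change of -0.11, and the 35 of these with a mean under 10 one of -0.19. All 12 probe sets whose log2 values were lower by over 0.3 were among the 59, and 0 probe sets were higher by over 0.3. Of the 59, 53 were below 0, and the highest log2 fold change was 0.29, in a probe set of RPL38.

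RPS24 showed the widest split. Its second probe set read 9.92 and 9.64 in TGF-β1 arrays, against 10.72 and 10.49 in untreated arrays (log2 fold change -0.82 ± 0.145, SE, limma adjusted p = 0.0741). Its brightest one read 14.48 and 14.58 in TGF-β1 arrays and 14.58 and 14.57 in untreated arrays. The second probe set thus differed 1.77-fold without overlap, where the first overlapped. For RPL37A the dimmest probe set read 8.70 and 8.71 in TGF-β1 arrays, against 9.16 and 9.29 in untreated arrays (log2 fold change -0.52 ± 0.108, SE, limma adjusted p = 0.105). Its second one had a log2 fold change of -0.01, and its brightest one -0.05. The 3 dim probe sets of RPL37 had log2 fold changes of -0.42, -0.50 and -0.48, and those of RPS28 -0.60 and -0.46, while the brightest ones of both genes lay at -0.05 and -0.07. In RPL22 all 5 probe sets were below 0. The 3 bright ones gave log2 fold changes of -0.10, -0.11 and -0.10 and the 2 dimmer ones -0.27 and -0.17. What the dimmer probe sets bind was not examined. Probe sets named _x_at, which can bind other transcripts (ribosomal protein genes have many processed pseudogenes), were the brightest for 15 of the 57 genes. By their suffix, the median log2 fold change was -0.06 for 36 _x_at, -0.05 for 36 _s_at and -0.12 for 44 other probe sets.

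**Figure D4:**
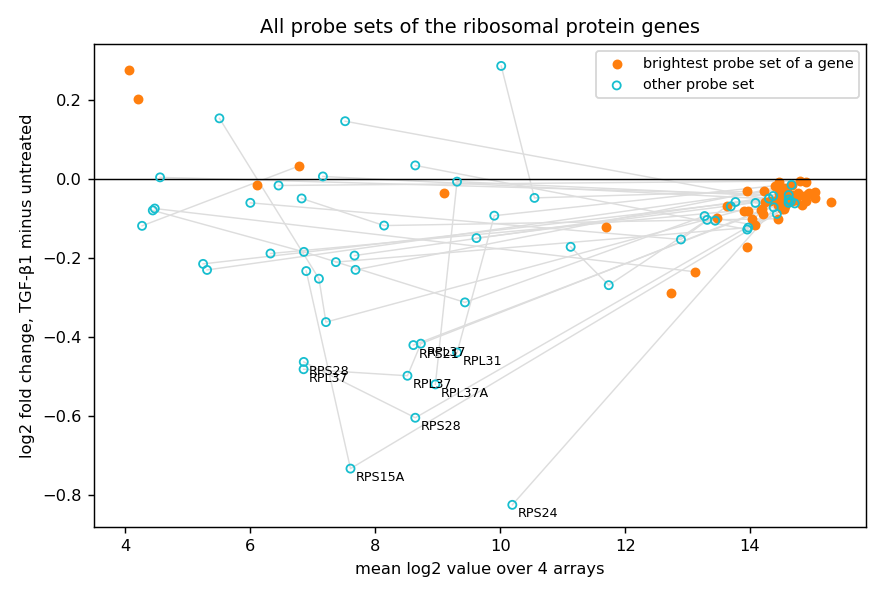
Each point is 1 of the 116 probe sets, with its mean log2 value on the horizontal and its log2 fold change (TGF-β1 minus untreated) on the vertical axis, and grey lines join probe sets of the same gene. Most filled points (the brightest of each gene) cluster at the right near 0. The labelled open points, down to -0.82 for RPS24, are dimmer probe sets of genes whose brightest one lies near 0.

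Some ribosomal proteins lie outside the name rule. FAU, whose product is cleaved to a small subunit protein, read 13.66 and 13.62 in TGF-β1 arrays, against 13.74 and 13.65 in untreated arrays. Among 6 such genes measured 0 passed by limma and 0 had an unadjusted p under 0.05, and log2 fold changes ran from -0.19 for RPL39L to 0.05 for RPL36AL, with a median of -0.10. Of 12 other TOP mRNAs 0 passed by limma and 0 had an unadjusted p under 0.05, with a median of -0.09. The most negative were the initiation factor gene EIF4B (-0.25) and HNRNPA1, an RNA-binding protein gene (-0.21). EEF1A1, the elongation factor gene known for its abundance, read 15.24 and 15.26 in TGF-β1 arrays and 15.28 and 15.265 in untreated arrays. Standard members with and without a tract had medians of -0.05 (40 genes) and -0.03 (6 genes), which leave out the L1-type paralogs RPL7L1 and RPL26L1 (no tract) and RPL22L1 (with one).

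Genes that make or regulate ribosomes gave other values beside these. MYC fell to 10.56 and 10.42 in TGF-β1 arrays, against 12.14 and 11.99 in untreated arrays. DDIT4, an inhibitor of mTOR signalling, rose to 11.03 and 11.11 in TGF-β1 arrays, against 9.59 and 9.59 in untreated arrays. Both passed (log2 fold changes -1.58 ± 0.111 and 1.48 ± 0.099, SE, limma adjusted p = 0.00311 and 0.00261), and with any 1 array left out as well. The other 9 of 11 regulators did not pass. LARP1, which binds the TOP tract, read 12.35 and 12.27 in TGF-β1 arrays, against 12.73 and 12.53 in untreated arrays (log2 fold change -0.32 ± 0.114, SE, limma adjusted p = 0.231), and MTOR had a log2 fold change of -0.01.

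Of 36 measured genes of rRNA synthesis and ribosome assembly, 17 fell and 0 rose, where 1.47% of all genes fell, and their median log2 fold change was -0.56. LYAR, a nucleolar protein gene, was 2.60-fold lower. NOP16 was 1.95-fold lower, POLR1B, a subunit of RNA polymerase I, 1.94-fold, and RRP9, of the processing machinery for pre-rRNA, 1.91-fold. The other 13 were GAR1, NOP2, NOP14, WDR12, WDR43, WDR75, UTP20, NOL6, NOLC1, POLR1A, BYSL, TSR1 and NOB1, between 1.46-fold (NOP2) and 1.88-fold (WDR43) lower. With 1 array left out 0 of the 36 passed, except without TGF-β1 replicate 1, when 1 did, while the median stayed between -0.62 and -0.54. Nucleophosmin gene NPM1, which is at once a biogenesis and a TOP mRNA gene, did not pass (log2 fold change -0.13).

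None of the 6 dedicated chaperones of ribosomal proteins passed by limma, and 4 were lower at an unadjusted p under 0.05, as were 8.54% of all genes. BCCIP, the chaperone of RPL23, read 11.15 and 11.12 in TGF-β1 arrays, against 11.64 and 11.64 in untreated arrays (log2 fold change -0.505 ± 0.096, SE, limma adjusted p = 0.0507). LTV1, which in yeast accompanies Rps3 into the small subunit, had a log2 fold change of -0.48 (limma adjusted p = 0.0666). Among 75 mitochondrial ribosomal protein genes 2 fell and 0 rose, where 1.47% of all genes fell and 1.87% rose. MRPS26 was 1.47-fold and MRPS12 1.45-fold lower, and the median of the 75 was -0.20. Among 52 genes with names in EIF or EEF, 1 fell, EEF2KMT, which encodes an enzyme that methylates an elongation factor (1.59-fold), and the median was -0.14. Both counts are close to the share of all genes that fell. At an unadjusted limma p under 0.05, 23 of the 75 and 12 of the 52 were lower, against 8.54% of all genes. At that threshold 0 of either list were higher, against 8.18% of all genes. None of the calls of MRPS26, MRPS12 and EEF2KMT held with any 1 array left out. How the ribosomal protein genes differ from these lists was not tested. Their probe sets were brighter, with a median level of 14.49, against 10.56 for the biogenesis genes and 11.55 for the mitochondrial ones, and the part of that in the smaller differences was not tested.

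**Figure D5:**
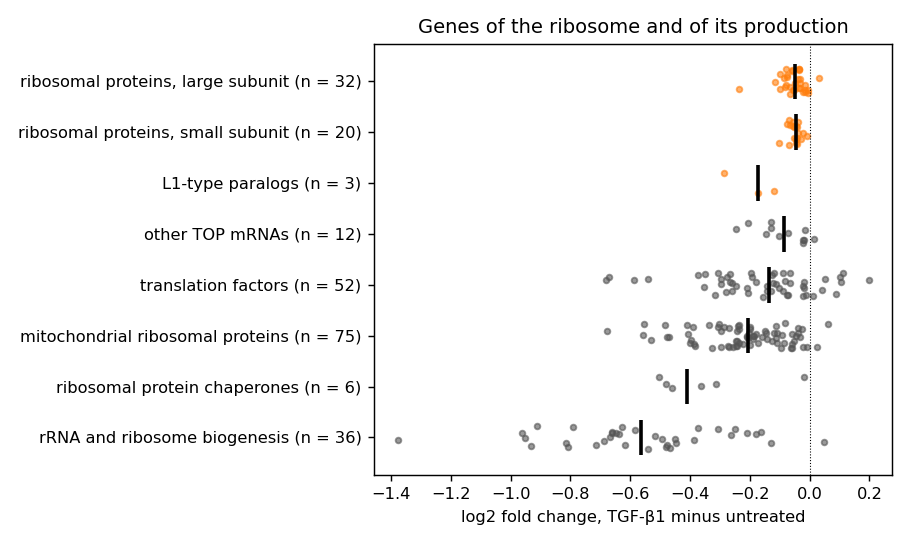
Points are the log2 fold changes (TGF-β1 minus untreated) of single genes in each list and black lines are list medians. The medians run from -0.05 for the ribosomal proteins of either subunit, through -0.20 for mitochondrial ribosomal proteins, to -0.56 for genes of rRNA and ribosome biogenesis.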

How the data were processed

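The deposited log2 values were made by the authors with RMA, per the series' design text and the submitters' processing notes (background correction, quantile normalization, 1 summary value per probe set), version not given in the sources used here. Gene names came from the platform annotation, updated through Entrez IDs. It names 41097 of 54675 probe sets with 1 symbol and 1801 with several, the latter not used, 68 of them listing a symbol of this gene class. A gene was represented by its brightest probe set (highest average of all arrays). Groups were taken from the titles and compared in limma 3.58.1 (R 4.3.3; lmFit and eBayes over all 19775 genes, all 4 arrays, no covariate, two-sided), with log2 fold changes as TGF-β1 minus untreated, moderated standard errors on 6.13 degrees of freedom and Benjamini-Hochberg adjusted p under 0.05. An exact permutation test of 2 against 2 cannot go below 0.333 and was not used. The fit was tested on simulated data, with changes larger than those of the members' brightest probe sets. Whether differences as small as theirs would be called was therefore not tested. Nothing says that replicates were separate cultures, so p-values reflect only how far these arrays scatter, possibly for technical reasons, and precision is limited by having 2 arrays a group. The members, gene lists and alternatives were chosen with earlier results of these data known. Readings are given for the members with the highest and lowest changes, the brightest and dimmest probe sets and members by role. RPL3, RPL27A, RPS18, RPS19, RPS25, FAU, EEF1A1, LARP1, MTOR, NPM1 and the further probe sets were chosen after their values were seen. TOP tracts and motifs were searched in RefSeq promoters (GRCh38.p14).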

Additional observations from a re-analysis of the deposited data

How the results depend on the processing

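The count of 0 ribosomal protein genes passing in either direction held under every alternative run (minimum means of 5 or 7, an intensity trend, 3 other scalings, other choices of probe set, every probe set, a replicate block, each array left out, and standard members alone). At unadjusted p, 1 member (RPL7L1) and 3305 genes passed. The median log2 fold change of the members stayed below 0 throughout. It was -0.0705 with arrays centred on their medians, -0.024 on housekeeping genes, -0.0209 after cyclic loess, -0.0768 for averaged probe sets, -0.0667 for the probe sets with several symbols (added after seeing the data) and -0.0798 to -0.0243 with 1 array left out, the cause of which was not tested. The sign of 9 members changed with cyclic loess and of 12 without TGF-β1 replicate 1, and none of these passed. Centring shifts every gene alike: on housekeeping genes the median of all genes was 0.0202 in place of -0.0036, and 7 members near 0 changed sign with it. Over all genes 70 to 104 passed with 1 array left out in place of 660, since fewer samples leave 1 array to a group. With the replicate block 561 did, and 0 members. The labels do not say that a number marks a shared culture or day, and with 2 pairs the data cannot settle it. Deviations of same-numbered arrays correlated at 0.364 across all genes and at -0.545 across the members.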

Other observations

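The name rule leaves out probe sets that list a ribosomal protein symbol beside others, often a small nucleolar RNA encoded in an intron of the gene. As a group chosen after seeing the data, these 68 probe sets had a median log2 fold change of -0.0667, and 64 were below 0, as were 52.0% of all probe sets. None passed by limma over all probe sets, and an unadjusted p under 0.05 was reached by 5, all of them in the lower direction, a share near the 6.86% of all probe sets. Of the 41 with a mean log2 value of 14 or more, 40 were below 0, with a median of -0.05. Their median level was 14.42 and 14.48 in TGF-β1 arrays, against 14.51 and 14.55 in untreated arrays, so TGF-β1 replicate 1 was again the lowest array.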
